A study of Mus musculus with 4 samples.

Results

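The immediate early genes examined here were 10 genes, the AP-1 subunit genes Fos, Fosb, Jun, Junb, Jund and Atf3, the zinc finger factor genes Egr1 and Egr2, and Ier2 and Dusp1. They were found by their symbols among 56004 gene rows, and each symbol had 1 row. The libraries were RNA-seq of cells labelled as Kupffer cells (liver macrophages) of the mouse, 48 h after the addition of exosomes from the mouse colon carcinoma line MC38. In 2 libraries the exosomes came from MC38-PRL-3 cells (PRL-3 libraries) and in 2 from MC38-VT cells (VT libraries), which were taken here as the control. Ptp4a3 encodes PRL-3, a tyrosine phosphatase, and the labels do not expand VT. An amount of 10 ug is written beside the VT exosomes, and its wording leaves unclear whether it also held for the PRL-3 exosomes. No library of cells without exosomes was analysed here, so the values compare the exosome sources and not exosomes with none. The labels call the replicates biological (biol rep) without saying what separates them, so the p-values measure the spread between these libraries, whatever its source. Strain, sex and age of the mice are not stated.

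Immediate early genes are transcribed within minutes of a stimulus, without new protein synthesis, by factors such as SRF and CREB that already sit in the cell. Fos and Jun proteins pair through leucine zippers to form AP-1, which binds the letters TGANTCA, and Egr proteins bind GC-rich sites through zinc fingers. In macrophages these genes are known for their response to microbial products, adhesion and handling, and the transcripts of most of them are short-lived. All libraries here were taken at 48 h, so a response soon after the addition of exosomes was not measured.

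The values were read as FPKM, that is fragments scaled by transcript length in kilobases and by 1e6 fragments in all, a unit that the files do not name and that was taken from the values. Levels in this unit can be compared between genes. The fitted depth was 17.0 and 18.4 after PRL-3 exosomes and 18.1 and 18.4 after VT exosomes, in units of 1e6 fragments. PRL-3 replicate 1 stood apart, with an SD of the log2 ratio of 0.402 to 0.412 in each pair that included it and 0.313 to 0.366 in the other pairs. Some macrophage transcripts were abundant, with Lyz2 at 5916 to 6831 FPKM. However, Clec4f, Vsig4, Timd4 and Marco, which define resident Kupffer cells, were listed at 0 in every library. The macrophage markers C1qa, at 0.13 FPKM or less, and C1qb, at 0.13 to 0.38 FPKM, were near 0 too. The summed level of the 12 Kupffer cell and macrophage markers was 7571 and 7736 FPKM after PRL-3 exosomes and 8750 and 8816 after VT exosomes. Lyz2 and Cd14 carried most of that sum and were lower in both PRL-3 libraries, as was the low Cd5l, while Adgre1, Csf1r and Cd68 overlapped between the groups. Of all tested genes 18% were lower in both PRL-3 libraries, and 0 of these 6 markers were called by limma at an adjusted p under 0.05. The sum of the 7 stellate cell and fibroblast markers was 10.8 and 8.88 against 6.52 and 5.56, with Lrat at 0 throughout and the most abundant, Dcn, overlapping between the groups. The part of these marker levels in the results was not tested. The hepatocyte, endothelial, epithelial and lymphocyte lists summed to 0.46 FPKM or less in every library. The 4 neutrophil markers summed to 217 and 271 FPKM against 309 and 247, nearly all of it S100a8, with Ly6g and Mpo at 0 and S100a9 at 0.40 or less. In such bulk samples fewer cells of a type and less RNA per cell cannot be told apart.

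The promoters of 4 of the genes are shown because they share letters that the choice of genes did not use. The 250 bases before the start site were searched on both strands, with start sites and sequence from RefSeq (GRCm38.p6), where 8 of the 10 genes matched. The motifs were the CArG box bound by SRF, the AP-1 site TGANTCA and the CREB site TGACGTCA. The Egr site GCGTGGGCG and the Sp1 site GGGCGG were searched too. The TATA box TATAAA was also searched. The shorter TGACGT was added after the sequences were seen. TGACGT is part of TGACGTCA, so a match to the longer motif also counts for the shorter. Capitals mark every match that lies whole within the run printed.
Fos (chr12:85473640-85473889, plus strand): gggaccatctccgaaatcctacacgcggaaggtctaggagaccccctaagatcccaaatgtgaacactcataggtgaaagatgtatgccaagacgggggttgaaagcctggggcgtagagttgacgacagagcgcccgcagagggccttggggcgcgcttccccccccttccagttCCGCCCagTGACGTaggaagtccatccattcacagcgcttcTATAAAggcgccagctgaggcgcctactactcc
Egr2 (chr10:67537619-67537868, plus strand): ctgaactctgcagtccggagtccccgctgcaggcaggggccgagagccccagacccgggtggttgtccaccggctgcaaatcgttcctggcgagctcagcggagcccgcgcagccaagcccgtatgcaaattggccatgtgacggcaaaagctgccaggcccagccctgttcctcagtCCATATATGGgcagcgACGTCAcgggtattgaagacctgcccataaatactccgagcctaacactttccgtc
Atf3 (chr1:191183334-191183583, minus strand): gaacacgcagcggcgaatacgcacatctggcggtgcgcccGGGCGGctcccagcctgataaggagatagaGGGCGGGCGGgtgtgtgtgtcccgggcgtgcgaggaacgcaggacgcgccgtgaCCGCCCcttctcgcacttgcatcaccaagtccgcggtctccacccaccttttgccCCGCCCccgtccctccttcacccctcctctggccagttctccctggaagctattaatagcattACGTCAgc
Dusp1 (chr17:26508520-26508722, minus strand): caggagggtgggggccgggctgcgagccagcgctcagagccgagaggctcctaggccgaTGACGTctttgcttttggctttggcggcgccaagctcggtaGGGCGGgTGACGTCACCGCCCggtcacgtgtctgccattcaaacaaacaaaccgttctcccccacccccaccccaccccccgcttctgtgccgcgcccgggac

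TGACGT, the core of the site bound by CREB and ATF factors, lay in 4 of the 8 windows, those of Fos, Egr2, Atf3 and Dusp1. Of all 32851 RefSeq windows of this length, 6.47% held it. As TGACGT was added after the sequences were seen, these shares are not a fair comparison. In Atf3 it lay from base -8 to -3 before the start site, and that window holds 7 bases of annotated exon. In Fos it lay from base -66 to -61 before the start site, with TATAAA from -33 to -28. Dusp1 alone held the full TGACGTCA, from -143 to -136, which 1.55% of all windows hold. Among the 8 windows, that of Egr2 alone held a CArG box, from -72 to -63, against 1.47% of all windows. Egr1 and Ier2 had no window, and bases further upstream were not searched for any gene. GGGCGG lay in 5 of the 8 windows, and in 32.7% of all. None of the 8 held TGANTCA (6.75% of all windows) or GCGTGGGCG (0.536%). Dusp1 is printed only up to base -48, where an annotated exon begins. The Jund window lies 1210 bases from the annotated start of its transcript and bears little on that start. These matches describe letters in a window and not sites in use.

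Of the 10 genes, 9 reached an FPKM of 1 in at least 2 libraries and were tested, and 0 were called by limma at an adjusted p under 0.05. Over all 12193 genes tested, 6 were called, or 0.0492% (0.0246% higher and 0.0246% lower), so a count of 0 among 9 genes is close to the background. At an unadjusted p under 0.05 there were also 0 of the 9 genes, against 9.51% of all genes. The median log2 difference on the log2(FPKM + 1) scale, with VT subtracted from PRL-3, was 0.10 over the 9 tested genes and 0.02 over all genes tested. By mean, 6 of the 10 genes were higher after PRL-3 exosomes and 4 lower. The groups did not overlap in 2 of the 9 tested genes, Jund (PRL-3 above) and Egr1 (PRL-3 below), beside 42.2% of all tested genes, nor in Fosb (below), which was not tested. In 8 of the 9 tested genes the difference between the groups was smaller than the larger of the differences between replicates, as it was in 71.2% of all tested genes.

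**Figure D1:**
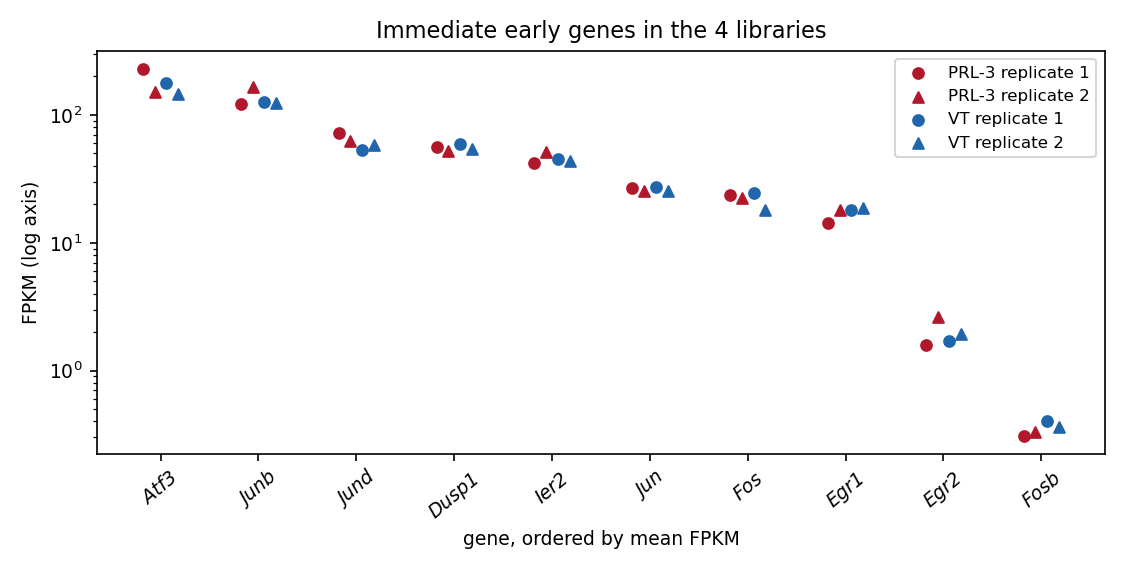
Level of each gene in each library, in FPKM on a log axis, with genes ordered by their mean. Red marks PRL-3 and blue VT libraries, circles replicate 1 and triangles replicate 2. The order runs from Atf3, at 145 to 228 FPKM, to Fosb, at 0.31 to 0.40, and the colours separate only for Jund, Egr1 and Fosb.

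The levels spanned from under 1 FPKM to over 100. Atf3 and Junb were the most abundant, at means over the 4 libraries of 175 and 134 FPKM, above 95.3% and 93.8% of the tested genes. Jund (61.3), Dusp1 (55.5) and Ier2 (45.6) followed, then Jun (26.1), Fos (22.2) and Egr1 (17.3), while Egr2 (1.96) and Fosb (0.35) were low. The ranges over the 4 libraries overlapped between the neighbours Atf3 and Junb, Jund and Dusp1, and Fos and Egr1, and did not overlap between any other neighbours in this order.

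Fos encodes the founding member of the Fos family, which binds DNA only as a partner of a Jun protein. It lies on chromosome 12 (85473890 to 85477273, plus strand, GENCODE release M21 on GRCm38, as for all positions). Fos was at 23.5 and 22.3 FPKM after PRL-3 exosomes and at 24.7 and 18.2 after VT exosomes. Both PRL-3 values lay between the VT values. Between the groups the log2 difference was 0.10 (95% interval from -0.28 to 0.49, limma adjusted p = 0.86). Its VT replicates differed by 0.42 on the log2 scale, more than the groups did, and without VT replicate 2 the difference was -0.11.

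Fosb (chromosome 7, 19302696 to 19310051, minus strand) encodes a relative of Fos that stands out for its long-lived short form in brain. Fosb was at 0.31 and 0.33 FPKM after PRL-3 exosomes and at 0.40 and 0.36 after VT exosomes. Both PRL-3 libraries were below both VT libraries, but these values stand for about 19 to 26 fragments each, and the gene was too low to be tested. Its log2 difference was -0.06.

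The remaining Fos family genes, Fosl1 and Fosl2, were at levels near that of Fos. Fosl1 was at 26.5 and 23.4 FPKM against 24.6 and 20.3, and Fosl2 at 15.1 and 20.3 against 17.4 and 14.4. Of the summed FPKM of the 4 Fos family genes, Fos made up 33.6% to 36.9%, Fosl1 35.3% to 40.5%, Fosl2 23.1% to 30.7% and Fosb 0.47% to 0.68% over the libraries. The shares of Fos, Fosl1 and Fosl2 overlapped between the groups. That of Fosb was lower in both PRL-3 libraries, but it rests on about 19 to 26 fragments per library.

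Jun, the main partner of Fos, is a gene of 1 exon on chromosome 4 (95049034 to 95052222, minus strand). Jun was at 26.6 and 25.5 FPKM after PRL-3 exosomes and at 27.2 and 25.2 after VT exosomes. All 4 values lay close together and the groups overlapped. On the log2 scale the difference was -0.01 (95% interval from -0.26 to 0.24, limma adjusted p = 0.99), the smallest of the 10. The antisense gene Junos overlaps 232 of its exon bases and was at 1.53 to 2.59 FPKM, and whether strand was kept is not stated.

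Junb (chromosome 8, 84974484 to 84978718, minus strand) encodes a Jun protein that is a weaker activator than Jun on many AP-1 targets. Junb was at 121 and 164 FPKM after PRL-3 exosomes and at 127 and 124 after VT exosomes. PRL-3 replicate 2 was the highest library and PRL-3 replicate 1 the lowest, so the VT values lay between them. The log2 difference between the groups was 0.17 (95% interval from -0.22 to 0.56, limma adjusted p = 0.76), and the PRL-3 replicates differed by 0.43. Without PRL-3 replicate 2 the difference was -0.046, and without PRL-3 replicate 1 it was 0.39.

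Jund (chromosome 8, 70698949 to 70700616, plus strand), the Jun gene that is least inducible and is expressed in most resting cells, showed the largest difference of the 10 with all libraries in. Jund was at 72.1 and 62.1 FPKM after PRL-3 exosomes and at 53.2 and 57.7 after VT exosomes. Both PRL-3 libraries were above both VT libraries, an order that 24.3% of all tested genes also had. The fitted log2 difference was 0.27 (standard error 0.12, 95% interval from -0.02 to 0.56), and it did not pass (limma adjusted p = 0.55). The antisense gene Gm11175 (chromosome 8, 70699162 to 70700080, minus strand) lies inside Jund, and its reads cannot be told from those of Jund without strand. Gm11175 was at 0.23 and 0 FPKM after PRL-3 exosomes and at 7.35 and 1.08 after VT exosomes, the opposite order. With its fragments counted as Jund, Jund was at 72.2 and 62.1 against 54.8 and 58.0 FPKM, a log2 difference of 0.25 (an alternative chosen after the data were seen). Without PRL-3 replicate 1 the difference of Jund was 0.16, below those of Junb, Egr2 and Ier2, and without PRL-3 replicate 2 it was 0.37, below that of Atf3.

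Within the Jun family Junb was the leading transcript in every library. It made up 55.2% and 65.2% of the summed FPKM of the 3 Jun genes after PRL-3 exosomes and 61.2% and 59.98% in the VT libraries. Jund made up 32.8% and 24.7% against 25.7% and 27.9%, and Jun 12.1% and 10.1% against 13.2% and 12.2%. The shares of Junb and Jund differed more between the PRL-3 libraries than between the VT libraries, and they overlapped between the groups. That of Jun was lower in both PRL-3 libraries, by little (12.07% in PRL-3 replicate 1 against 12.16% in VT replicate 2). The FPKM of Jun itself overlapped between the groups, and no share was tested.

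**Figure D2:**
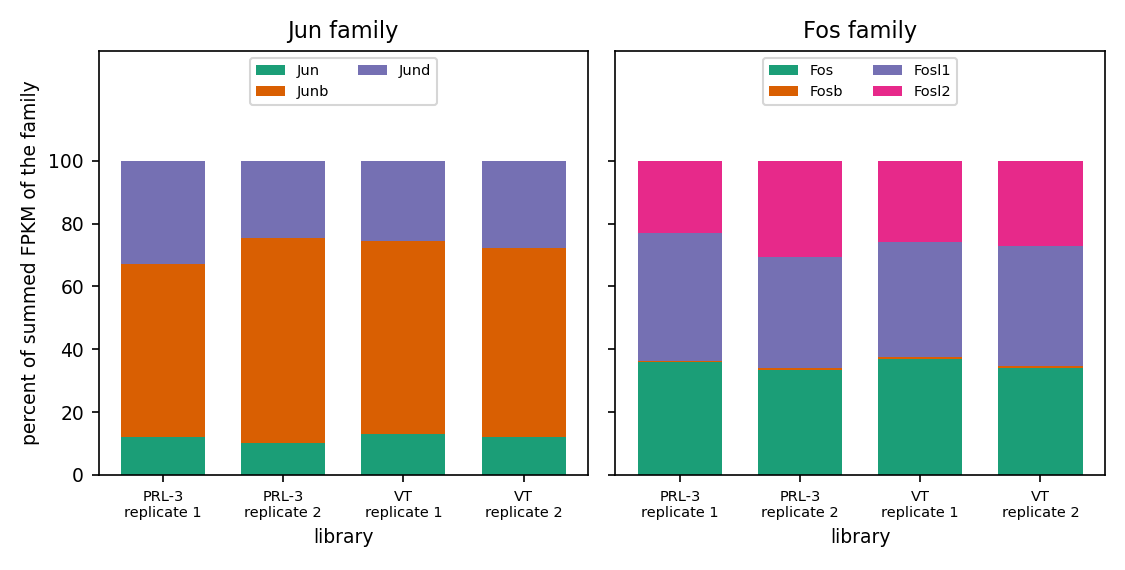
Share of each gene in the summed FPKM of the Jun family (left) and the Fos family (right), in percent, with 1 stacked bar per library. Junb took 55.2% to 65.2% of the Jun family, and Fos and Fosl1 together with Fosl2 made up nearly all of the Fos family in each library.

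Atf3 (chromosome 1, 191170296 to 191218039, minus strand) encodes a stress-induced ATF protein that pairs with Jun proteins and holds down inflammatory genes in macrophages. Atf3 was at 228 and 150 FPKM after PRL-3 exosomes and at 177 and 145 after VT exosomes. PRL-3 replicate 1 was the highest of the 4, and PRL-3 replicate 2 lay between the VT libraries. The log2 difference was 0.20 (95% interval from -0.34 to 0.75, limma adjusted p = 0.80), and the PRL-3 replicates differed by 0.60, the widest replicate gap among the 10 genes. Without PRL-3 replicate 1 the difference was -0.10, and without PRL-3 replicate 2 it was 0.51. Atf3 and Junb thus were highest in different PRL-3 libraries.

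Egr1 (chromosome 18, 34859823 to 34864984, plus strand) is the most widely used marker gene of the SRF response. Egr1 was at 14.4 and 17.9 FPKM after PRL-3 exosomes and at 18.2 and 18.8 after VT exosomes. Both PRL-3 libraries were below both VT libraries, an order that 18% of all tested genes had, although PRL-3 replicate 2 was close to the VT range. Between the groups the log2 difference was -0.19 (95% interval from -0.52 to 0.13, limma adjusted p = 0.68). It was -0.04 without PRL-3 replicate 1.

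Egr2 (chromosome 10, 67535475 to 67542188, plus strand), a relative of Egr1 with a role in myelination and in macrophage and T cell states, was low. Egr2 was at 1.58 and 2.62 FPKM after PRL-3 exosomes and at 1.71 and 1.92 after VT exosomes, which stand for about 74 to 132 fragments. The PRL-3 values lay on both sides of the VT values. On the log2 scale the difference was 0.12 (95% interval from -0.42 to 0.66, limma adjusted p = 0.89), and it was -0.12 without PRL-3 replicate 2. Egr1 made up 82.9% and 82.8% of the summed FPKM of the 4 Egr genes after PRL-3 exosomes and 88.4% and 87.7% after VT exosomes. The shares of Egr2, at 9.12% and 12.1% against 8.32% and 8.96%, and of Egr3, at 7.97% and 5.08% against 3.31% and 3.36%, were higher in both PRL-3 libraries. Shares of 1 sum depend on each other, and none was tested. In FPKM, Egr2 overlapped between the groups, and the groups did not overlap in 42.2% of all tested genes. Egr3 was at 1.38 and 1.10 against 0.68 and 0.72 FPKM (log2 difference 0.40, not called), while Egr4 was listed at 0 in every library. Only the PRL-3 libraries reached 1 FPKM for Egr3, so it was tested only through the group where it was high. Its order between the groups is therefore no support for a difference.

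Ier2 (chromosome 8, 84661331 to 84662852, minus strand), a gene of 1 exon whose product is a nuclear regulator, was at 42.3 and 51.3 FPKM after PRL-3 exosomes and at 45.2 and 43.6 after VT exosomes. The PRL-3 libraries were the lowest and the highest of the 4. The log2 difference between the groups was 0.07 (95% interval from -0.24 to 0.37, limma adjusted p = 0.89), and it was -0.070 without PRL-3 replicate 2.

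Dusp1 (chromosome 17, 26505590 to 26562128, minus strand) encodes a nuclear phosphatase that switches off p38 and JNK and so ends the signal that induces it. Dusp1 was at 56.3 and 52.6 FPKM after PRL-3 exosomes and at 59.2 and 53.9 after VT exosomes. The groups overlapped, with replicate 1 the higher library in each. The fitted log2 difference was -0.05 (95% interval from -0.31 to 0.20, limma adjusted p = 0.90), and it was 0.013 without VT replicate 1.

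**Figure D3:**
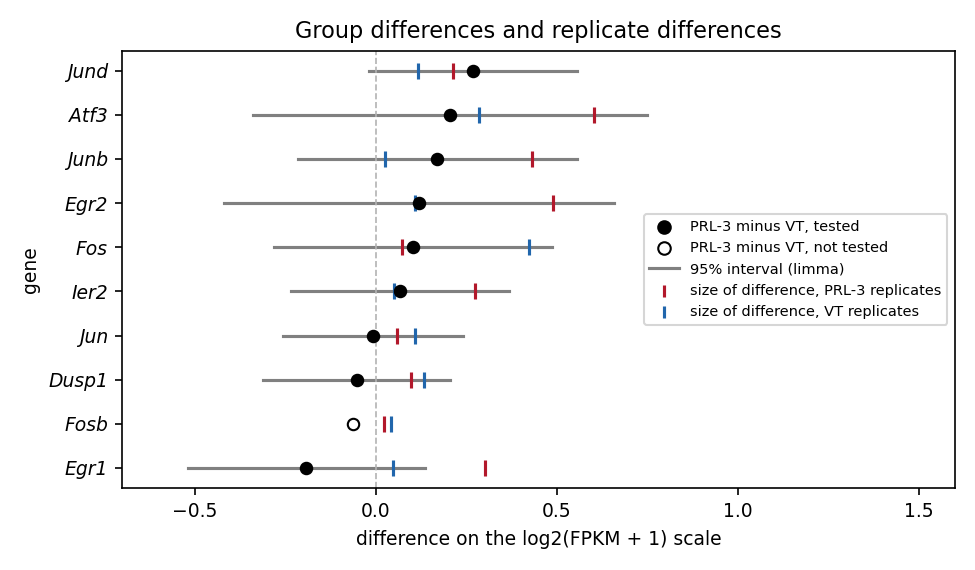
Difference between the groups for each gene, log2(FPKM + 1) of PRL-3 minus that of VT, with its 95% interval (grey lines), beside the size of the difference between the PRL-3 replicates (red ticks) and the VT replicates (blue ticks). Each of the 9 intervals includes 0, and Fosb (open circle) was not tested. Only for Jund among the tested genes did the group difference, 0.27, exceed both replicate differences.

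The PRL-3 replicates differed more than the VT replicates in 6 of the 9 tested genes. The median size of the log2 difference between replicates over the 9 tested genes was 0.27 for PRL-3 and 0.11 for VT, beside 0.18 and 0.11 over all genes tested. PRL-3 replicate 1 was above replicate 2 for Atf3, Jund, Dusp1, Jun and Fos and below it for Junb, Ier2, Egr1, Egr2 and Fosb. The mean of the centred log2 values of the 10 genes was 0.01 and 0.05 after PRL-3 exosomes and 0.01 and -0.07 after VT exosomes. The genes closest to that profile, of 9126 with a mean of at least 5 FPKM, were Upf2, D6Wsu163e, Msn, Itsn2 and Idh3g, at a Euclidean distance of 0.014 to 0.018 over the 4 libraries. With 728 genes within a distance of 0.1, a profile this flat singles out no gene.

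The wider circuit around these genes was then described from 7 lists, with 97 tested genes besides the 10. Again 0 of the 97 were called by limma, beside 0.0492% of all genes, and 12 had an unadjusted p under 0.05, beside 9.51% of all genes. Both PRL-3 libraries were above both VT libraries for 26.8% of the 97 and below for 14.4%, beside 24.3% and 18% of all genes tested. Their median log2 difference was 0.03. Without PRL-3 replicate 2, Klf2 (higher) and Plau (lower) were called, in a fit that called 100 of 11948 genes (27 higher and 73 lower).

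Of 11 AP-1 relatives, 9 were tested and 0 called in either direction (median log2 difference 0.06). The most abundant was Jdp2, a repressor that pairs with Jun proteins, at 49.1 and 106 FPKM after PRL-3 exosomes and 79.6 and 77.7 after VT exosomes. Its VT values lay between the PRL-3 values, in the same way as those of Junb. Mafg, a small Maf protein, followed at 46.9 to 53.2 FPKM. Of the Egr relatives and partners, 3 of 5 were tested and 0 called. Nab1 and Nab2, which bind Egr proteins and repress them, were at 29.8 to 32.0 and 11.5 to 16.2 FPKM, with overlapping groups.

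Of 24 tested upstream factors and kinases, 0 were called and the median log2 difference was 0.02. Mapkapk2, the kinase below p38, was at 171 and 176 FPKM after PRL-3 exosomes and 161 in both VT libraries. Srf itself was at 16.3 and 18.1 FPKM against 19.4 and 21.8, with both PRL-3 libraries below (log2 difference -0.24), and Creb1 was at 18.5 to 19.99 with overlapping groups. Srf and Creb1 were picked for the promoter letters above.

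Of the 13 tested phosphatases and feedback inhibitors, 0 were called (median -0.04). Dusp4, a nuclear phosphatase of MAP kinases, was at 67.2 and 72.1 against 67.2 and 63.9 FPKM, and Spred1, an inhibitor of Ras signalling, at 47.9 and 62.0 against 57.1 and 63.4. Members of this family pointed in both directions. Dusp14 was at 2.96 and 2.68 FPKM after PRL-3 exosomes and 6.11 and 4.62 in the VT libraries (log2 difference -0.73), while Dusp16, a phosphatase of JNK, was at 29.0 and 29.2 against 23.5 and 20.5 (0.39). Neither passed (limma adjusted p = 0.45 and 0.47). The last pair was picked with its values known.

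Of the 29 tested genes in the list of other immediate early genes, 0 were called and the median log2 difference was 0.13. In 12 of them both PRL-3 libraries were above both VT libraries and in 3 both were below, beside 24.3% and 18% of all tested genes, and nothing particular to the list is read from these counts. The most abundant, the chemokine genes Ccl3, at 2358 and 2547 against 2705 and 2199.97 FPKM, and Cxcl2, at 1185 and 1243 against 1369 and 1088, overlapped between the groups. Klf2, a Krüppel-like factor that restrains macrophage activation, had the largest difference of the tested genes in this list, at 21.3 and 15.1 FPKM against 9.96 and 9.41. Its log2 difference was 0.83 (standard error 0.17), short of the threshold (limma adjusted p = 0.45). Rhob, a small GTPase, was at 16.6 and 13.1 FPKM against 9.71 and 9.57 (log2 difference 0.57, limma adjusted p = 0.45). Ptgs2, the inducible prostaglandin synthase, was at 162 and 193 against 153 and 115 (0.41, limma adjusted p = 0.52). Klf2, Rhob and Ptgs2 were picked with their values known.

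Of the 13 tested AP-1 and Egr target genes, 0 were called (median -0.09). Spp1, osteopontin, was at 11246 and 10155 FPKM against 12192 and 10595, and Cd44, a hyaluronan receptor, at 229 and 272 against 216 and 224. Plau, the urokinase, was at 14.6 and 24.2 FPKM after PRL-3 exosomes and 36.5 and 40.8 after VT exosomes (log2 difference -1.0, limma adjusted p = 0.45). Ccnd1, cyclin D1, was at 27.4 and 27.1 against 39.7 and 48.0 (-0.66, limma adjusted p = 0.45). Il6 was at 3.56 and 2.55 against 1.78 and 0.80 (0.85, limma adjusted p = 0.49). These targets thus lay on both sides of 0 and passed no test. Plau, Ccnd1 and Il6 were picked with their values known.

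The heat shock genes, which like the immediate early genes respond to the handling of cells, were described beside them. Of 10 genes 7 were tested and 0 called (median log2 difference -0.21). Hsp90ab1 was at 579 and 842 FPKM against 804 and 817, and Hspa8 at 402 and 487 against 457 and 498. PRL-3 replicate 1 was the lowest library for both. Hspa1a and Hspa1b, the strongly inducible genes of this family, were at 0.11 FPKM or less in every library.

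**Figure D4:**
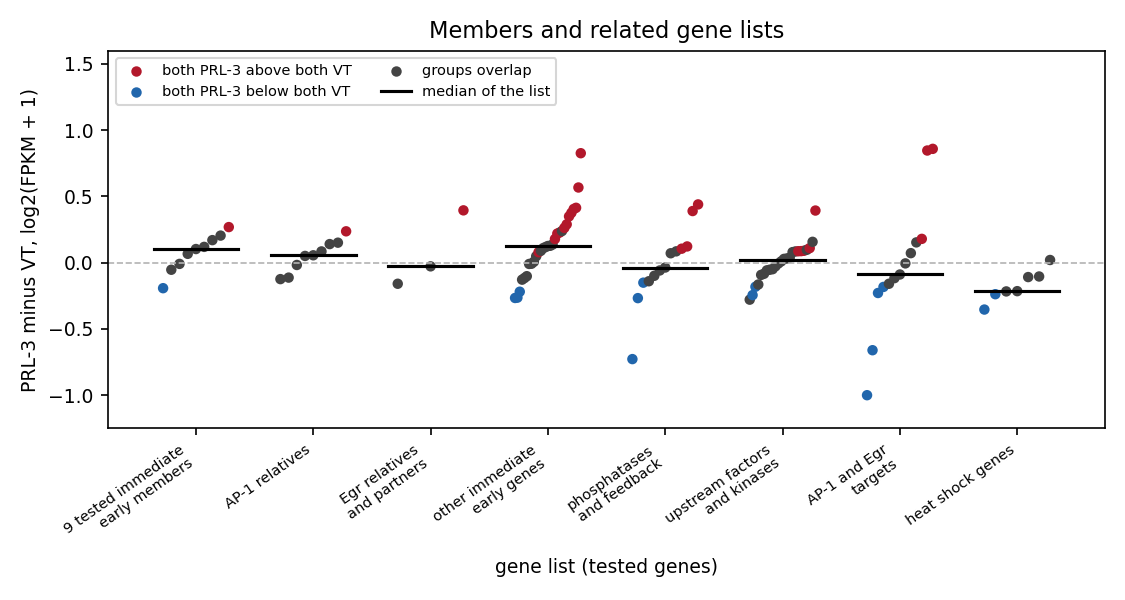
Differences between the groups for the 9 tested immediate early genes and for the tested genes of the 7 related lists, log2(FPKM + 1) of PRL-3 minus that of VT. Each point is a gene, red where both PRL-3 libraries were above both VT libraries, blue where both were below and grey where they overlapped, and the black line is the median of the list. The 9 genes lie between -0.19 and 0.27, while single genes of other lists reach -1.0 (Plau) and 0.86 (Timp1), and no point was called.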

How the data were processed

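The libraries were RNA-seq of total RNA, with mRNA captured on beads and cDNA primed with random hexamers. The authors deposited 1 table per library with 1 value per gene, rounded to 2 decimals. The deposited values were read as FPKM, already scaled by the authors for transcript length and depth. No source used here names the unit, but the values are not whole, the sums differ between libraries (675475 to 725599) and low values fall with transcript length. The submitters' processing notes name RSEM, DESeq2 and mm10, with no version or role, and no source used here gives the aligner or annotation. Of 55359 rows with an Ensembl identifier, 52083 matched GENCODE M21. An assembled identifier (MSTRG) stood on 4868 rows, among them those of Fosl2, Jdp2, Plau, Spp1 and Ccnd1, and on none of the 10 members. Whether such rows match the annotated genes was not tested.

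Depth was fitted so that low values of single-transcript genes became whole fragments. Within 0.2 fragments 89.9% to 91.8% did, against 40% by chance. Fragment numbers are approximations that cover counting error only.

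Every gene that reached 1 FPKM in 2 or more of the libraries was tested on log2(FPKM + 1) with limma 3.58.1 in R 4.3.3 (mean-variance trend, robust moderation). This scale understates the change of low genes. P-values were adjusted by Benjamini-Hochberg over all 12193 genes and called under 0.05. The fit and the depth search were tested on simulated data. There the fit called 42% of the changes of log2 size 1 and 88% of those of size 2, with 4 false calls. A gene that was not called may therefore still differ. From each list up to 4 called genes and the 2 of highest mean were named, except 1 gene that is not reported here. The members and lists were chosen with earlier results of these data known. The alternatives listed for the closing section were another pseudocount, filter, scaling and moderation, a replicate block and leaving out each library.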

Additional observations from a re-analysis of the deposited data

How the results depend on the processing

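No immediate early gene was called by limma under any of the 12 alternatives, and the lowest adjusted p among them was 0.13. Of 131 values of single members under the alternatives, 122 kept their direction. Part of these could not change, because the filters, the moderation, the replicate block and summing rows left the log2 differences as they were. Jun changed direction, to 0.011, with the 20 most abundant genes left out of the sum. All other reversals came from leaving out 1 library, over which the log2 difference ranged from -0.10 to 0.51 for Atf3, -0.046 to 0.39 for Junb, -0.070 to 0.20 for Ier2, -0.063 to 0.045 for Jun, -0.11 to 0.31 for Fos, -0.12 to 0.36 for Egr2 and -0.12 to 0.013 for Dusp1. Jund, Egr1 and Fosb kept their direction under every alternative. Their groups did not overlap, so leaving out 1 library could not reverse them. With 1 library left out Jund ranged from 0.16 to 0.37 and Egr1 from -0.34 to -0.04. The median over the 10 genes, 0.09 with all libraries, was lower with any 1 library left out, at -0.025 (PRL-3 replicate 2) to 0.079 (VT replicate 1), with 0.014 and -0.011 for PRL-3 replicate 1 and VT replicate 2. Under the other alternatives it was 0.067 (median scaling) to 0.11 (20 most abundant genes left out of the sum).

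Over all genes, limma called 6. It called 1 with a pseudocount of 0.1, 0 with no filter (1509 at an unadjusted p under 0.05), 1 with a mean of 5 or more and 2 without the mean-variance trend. Leaving out 1 library gave 0 to 100 calls, namely 2 and 100 when PRL-3 replicate 1 or 2 was dropped and 0 when either VT library was (549 and 350 at an unadjusted p under 0.05). Among the related lists the count was 0 to 2, with Klf2 and Plau called without PRL-3 replicate 2. A lone library is then assumed to vary like the other group. With the replicate number as a block 15 genes were called, none a member. Same-numbered libraries did not deviate together (correlation -0.06 over 12193 genes). With 2 libraries per group, this value cannot tell whether same-numbered libraries share more than a number. The causes of these shifts were not tested. Each member had 1 row, so summing rows changed nothing.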

Other observations

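Ccn1 and Ccn2, matricellular immediate early genes that SRF and YAP induce in adherent and mesenchymal cells, were too low to be tested. Ccn2 was at 0.78 and 0.55 FPKM after PRL-3 exosomes and at 0.03 and 0 after VT exosomes, and Ccn1 at 0.13 and 0.09 against 0.03 and 0. Both PRL-3 libraries were above both VT libraries for each, an order that 24.3% of all tested genes also had, and the values of Ccn1 all lie near 0. The collagen genes Col1a1, at 0.68 and 0.52 against 0.01 and 0.03 FPKM, and Col1a2, at 0.81 and 0.47 against 0 and 0, were likewise higher in both PRL-3 libraries, as were Col3a1 and Acta2. The collagen genes were too low to be tested. Acta2, at 1.94 and 2.61 against 0.97 and 0.86, was tested only through the PRL-3 libraries and was not called. Dcn, the most abundant gene of that marker list, was at 6.63 and 4.32 against 5.44 and 4.65 and overlapped. Desmin (Des) was at 0.38 and 0.10 against 0.10 and 0.02, and Lrat, which defines quiescent stellate cells, was at 0 throughout. These genes were chosen after their values were seen, and the part of other cell types in these values was not tested.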
